A study of Mus musculus with 7 samples.

Results

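The 8 genes of the SOCS family in the mouse (Socs1 to Socs7 and Cish) were followed together with the adaptor gene Sh2b3 and the phosphatase gene Ptpn6, all brakes on cytokine signalling. The 10 members were found by symbol among the 39179 Ensembl gene IDs of the deposited table. LSK cells, the lineage-negative, Sca-1 and Kit positive fraction of bone marrow, were sorted from mice aged 7 weeks, labelled as strain C57/BL6. The 3 Jmjd1c libraries came from Jmjd1c f/f Vav1Cre mice and the 4 control libraries from Vav1Cre mice, so both groups carried the Cre transgene, which the Vav1 promoter drives in blood cells at large. The comparison addressed what loss of JMJD1C, a JmjC-domain protein of the KDM3 histone demethylase family, does to normal blood stem and progenitor cells. Nothing in the labels ties each library to an animal of its own, so p-values measure the spread between libraries, which may be technical.

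Cytokines such as interleukin-3 and the interferons bind receptors that carry JAK kinases, and the JAKs phosphorylate STAT factors, which then enter the nucleus and switch on genes. Among those genes are Cish, Socs1, Socs2 and Socs3, whose proteins dock on the receptor or the JAK through an SH2 domain and recruit a ubiquitin ligase through the SOCS box, which closes a negative feedback loop. SH2B3, also called LNK, binds JAK2 and the receptor KIT and limits stem cell expansion in mice, while PTPN6, also called SHP-1, is a tyrosine phosphatase that removes the activating phosphates.

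Values are reads per gene that the authors divided by a size factor for each library, called normalized read counts here. Whole reads could be recovered from them, and libraries held 4303712 to 6436519 reads in genes. The Jmjd1c gene stood at 294, 244 and 254 in libraries Jmjd1c 1 to 3 and at 458, 466, 516 and 512 in controls 1 to 4, a log2 fold change of -0.89 ± 0.09 (standard error; limma, adjusted p = 0.00407). The LSK marker genes Kit and Ly6a (Sca-1) were present in all 7 libraries, at 5880 to 7268 for Kit and 728 to 839 for Ly6a in Jmjd1c libraries, and at 4778 to 6700 for Kit and 694 to 915 for Ly6a in control libraries. The library Jmjd1c 3 stood apart in sex-linked transcripts: it had 2767 normalized read counts of Xist and 0 of the Y-linked Ddx3y, while the other 6 libraries had 4.14 to 9.32 of Xist and 461 to 688 of Ddx3y. The labels give no sex, and within the Jmjd1c group sex cannot be told apart from anything else particular to that library. Control 4 stood apart in macrophage markers, whose 12 genes summed to 13006 there, while the sums were 3024 to 5293 in the Jmjd1c libraries and 3444 to 4888 in the remaining controls.

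Levels of different genes were compared per kilobase of annotated exon. Ptpn6 was by far the most abundant brake, at 785 ± 50.7 normalized read counts per kilobase in the Jmjd1c libraries (SD, n = 3) and 911 ± 126 in the control libraries (SD, n = 4), and the per-kilobase ranges of Ptpn6 and of the next gene did not overlap in either group. Sh2b3 followed at 28.6 ± 1.74 per kilobase in Jmjd1c and 30.4 ± 4.53 in control libraries. Socs5, Socs6, Socs7 and Cish formed a plateau with mean levels per kilobase from 18.3 to 20.2 in Jmjd1c and from 19.8 to 23.2 in control libraries, and neighbours within it overlapped in both groups. Below the plateau came Socs4, at 7.69 per kilobase in Jmjd1c and 9.90 in control libraries, and Socs2, at 3.80 in Jmjd1c and 5.59 in control libraries. Socs1 was at the bottom in both groups, at 3.33 ± 3.06 per kilobase in Jmjd1c and 0.996 ± 0.754 in control libraries. The one gene whose place differed much between groups was Socs3, at rank 3 in the Jmjd1c libraries with 21.7 ± 18.5 per kilobase and rank 8 in the control libraries with 8.23 ± 2.19, and its place among the Jmjd1c libraries rests on Jmjd1c 3.

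**Figure D1:**
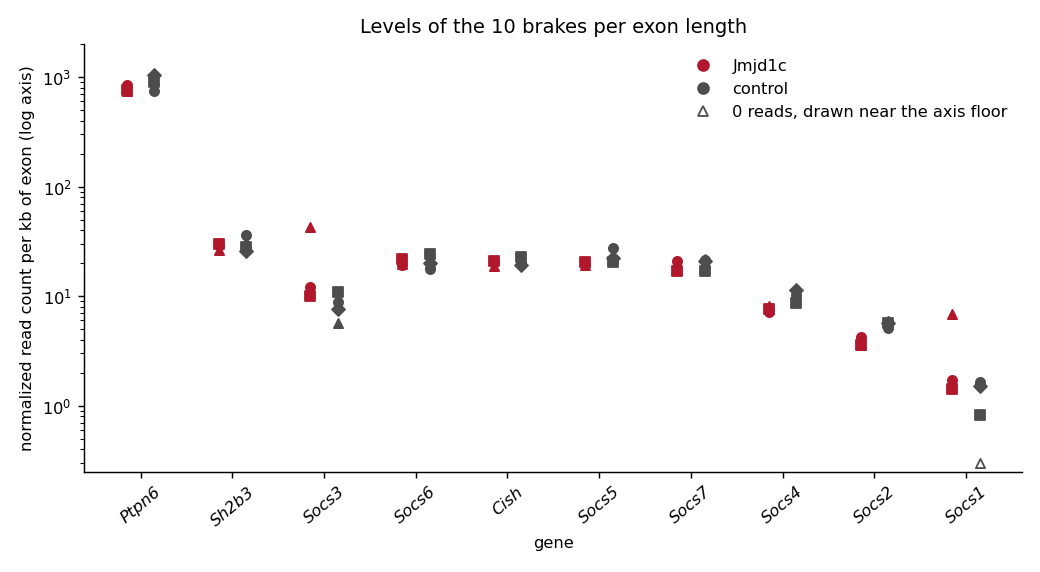
Normalized read count per kilobase of annotated exon (log axis) for the 10 brakes, ordered by the mean of the 3 Jmjd1c libraries, with a point for each of the 3 Jmjd1c (red) and 4 control (grey) libraries and circles, squares, triangles and diamonds for libraries 1, 2, 3 and 4. Ptpn6 lies near 785 in Jmjd1c and 911 in control libraries, and Socs5, Socs6, Socs7 and Cish lie near 20. Jmjd1c 3 (red triangle) lies apart for Socs3 and Socs1.

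No brake passed the threshold between the groups. Of the 10 members, 9 were tested, all with at least 10 normalized read counts in every library, and Socs1 fell under the filter. In limma, 0 were called higher and 0 lower at an adjusted p of 0.05, where 1.80% of the 12813 tested genes were called (1.51% higher and 0.289% lower). At an unadjusted p under 0.05 there were 3 members, Socs2, Socs3 and Socs4, where 19.7% of all tested genes were. The higher one, Socs3, compares with 11.9% of tested genes and the 2 lower ones with 7.84%. edgeR, which called 1.82% of genes, called 0 members, and DESeq2, which called 5.21%, called 1, Socs3. Of the 9, 8 had a negative log2 difference and 1 a positive one, with a median of -0.12, while 51.5% of all tested genes had a negative one and their median was -0.01. In bulk RNA a lower value can mean fewer cells of a kind or less RNA per cell, which cannot be told apart here.

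**Figure D2:**
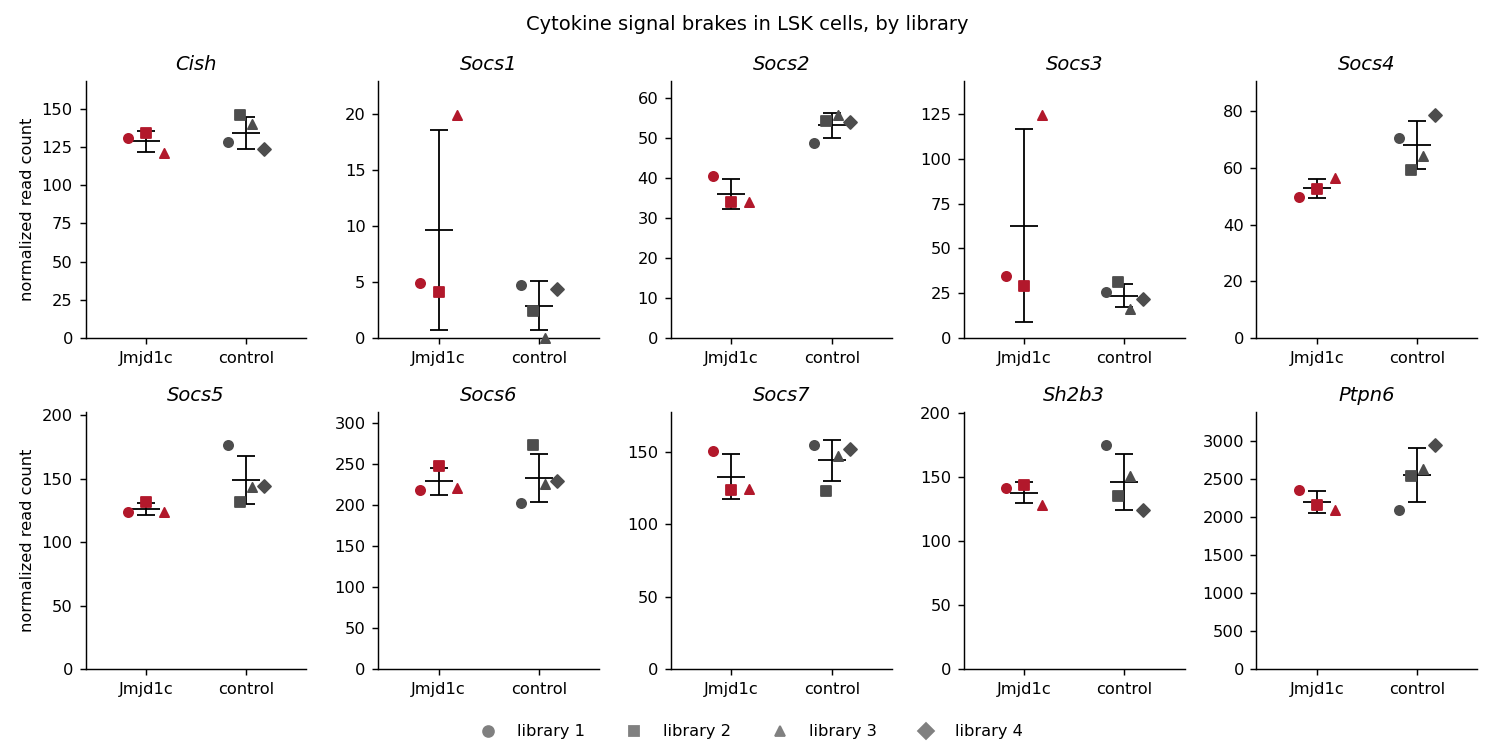
Normalized read counts of the 10 brakes in each of the 3 Jmjd1c libraries (red, left) and 4 control libraries (grey, right), with the group mean and SD as bars and circles, squares, triangles and diamonds for libraries 1, 2, 3 and 4. The Jmjd1c points lie below all control points for Socs2 and Socs4, and the library Jmjd1c 3 lies far above all others for Socs1 (20.0) and Socs3 (124).

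Socs2 (mm10 chromosome 10, 95385362 to 95417180, minus strand), whose protein restrains growth hormone signalling and is induced by STAT5, was the member with the smallest p. It had 40.5, 34.0 and 34.0 normalized read counts in libraries Jmjd1c 1 to 3, against 48.8, 54.3, 55.9 and 54.2 in controls 1 to 4. All 3 Jmjd1c libraries lay below all 4 control libraries. The means were 36.2 ± 3.76 in Jmjd1c (SD, n = 3) and 53.3 ± 3.11 in control libraries (SD, n = 4), a log2 difference of -0.55 ± 0.17 with a 95% interval of -0.92 to -0.18 that did not pass (limma, adjusted p = 0.114). The exact permutation p (2-sided) was 0.0286, the smallest that 35 assignments of the libraries allow. These values rest on 111 reads in the 3 Jmjd1c libraries and 216 in the 4 control libraries. The difference was of like size without any one library, from -0.63 to -0.51, and it was -0.51 ± 0.19 without Jmjd1c 3.

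Markers of basophils and mast cells were also lower in the Jmjd1c libraries, the 10 genes of that list summing to 2460 to 4938 normalized read counts in Jmjd1c and 6013 to 9283 in control libraries, with 1 of 9 tested called lower and no gene at 0 in all libraries. Neutrophil markers, of which 0 of 9 were called, summed to 6897 to 9914 in Jmjd1c and 9923 to 13348 in control libraries. The part of such cells in the Socs2 difference was not tested. Among the 98 tested genes of the pathway lists, those most like Socs2 over the 7 libraries were Il7r (Pearson r = 0.96, Spearman rho = 0.89), Dusp6 (r = 0.95, rho = 0.82) and Dok1 (r = 0.90, rho = 0.86). These coefficients take in the gap between the groups, since Socs2, Il7r, Dusp6 and Dok1 each had all Jmjd1c libraries below all control libraries.

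Socs4 (chromosome 14, 47276931 to 47296102, plus strand), whose protein targets the epidermal growth factor receptor, gave 49.6, 52.6 and 56.4 normalized read counts in Jmjd1c 1 to 3 and 70.4, 59.1, 64.1 and 78.7 in controls 1 to 4. Here too the groups did not overlap, though Jmjd1c 3 and control 2 differed by less than 3 normalized read counts. Its log2 difference was -0.35 ± 0.16, with a 95% interval of -0.70 to -0.01 (limma, adjusted p = 0.248; exact permutation p = 0.0571). Socs2 and Socs4 made 2 of 10 members below all control libraries, where 7.10% of tested genes were, and 0 members lay above all control libraries, where 9.74% of tested genes were.

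Socs5 (chromosome 17, 87107679 to 87137839, plus strand), whose protein also acts on the epidermal growth factor receptor, had 123, 132 and 123 normalized read counts in libraries Jmjd1c 1 to 3, against 176, 132, 143 and 144 in controls 1 to 4. The groups touched at a single point, Jmjd1c 2 lying just above control 2. The log2 difference was -0.23 ± 0.12 (95% interval -0.50 to 0.04; limma, adjusted p = 0.321), and without control 1, the highest library, it was -0.15.

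Socs3 (chromosome 11, 117966079 to 117970047, minus strand), the brake on gp130 and on the granulocyte colony-stimulating factor receptor, was high in a single library. It had 34.8, 28.9 and 124 normalized read counts in libraries Jmjd1c 1 to 3, against 25.6, 31.4, 16.3 and 21.9 in controls 1 to 4. Jmjd1c 3 was 3.58 times the next highest library, and Jmjd1c 2 lay within the control range. The log2 difference was 1.08 ± 0.43 (95% interval 0.14 to 2.03) and did not pass in limma (adjusted p = 0.20) or in edgeR (adjusted p = 0.151), while DESeq2, which called 4.18% of its genes higher, gave 1.38 and an adjusted p of 0.0351. Over all alternatives the adjusted p ran from 0.0351 to 0.537. Without Jmjd1c 3 the log2 difference was 0.44 ± 0.30 (limma, adjusted p = 0.537), with a mean of 31.8 in Jmjd1c 1 and 2 against 23.8 in control libraries.

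Socs1 (chromosome 16, 10782240 to 10785536, minus strand), the main brake on interferon gamma signalling, was near the detection floor everywhere but in the same library. Recovered reads were 6, 4 and 17 in Jmjd1c 1 to 3, against 6, 2, 0 and 5 in controls 1 to 4. In normalized read counts these are 4.96, 4.12 and 20.0 in Jmjd1c libraries, against 4.80, 2.41, 0 and 4.37 in control libraries, and the 0 reads of control 3 allow a value of up to 3.50 (3 reads), a floor that covers counting error only, since the reads carry no molecular identifiers. Jmjd1c 3 had the highest value, from 17 reads. Jmjd1c 1 and 2 lay within or just above the control range. The exact permutation p over groups was 0.229, and the gene was too low for the test across all genes.

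The promoter sequences of Socs3 and Socs1 are shown because these were the members that stood apart in Jmjd1c 3. Each is the stretch of 250 bases before the RefSeq start of the gene (GRCm38.p6, the assembly of mm10), 5′ to 3′ on the gene's minus strand, at chr11:117969367-117969616 for Socs3 and chr16:10785537-10785786 for Socs1. The gene spans given above come from another annotation. The Socs3 window lies inside the Socs3 span, and the Socs1 window lies just before the Socs1 span. Capitals mark matches to TTCNNNGAA, the core of the sites that most STAT dimers bind, which reads the same on both strands.

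Socs3: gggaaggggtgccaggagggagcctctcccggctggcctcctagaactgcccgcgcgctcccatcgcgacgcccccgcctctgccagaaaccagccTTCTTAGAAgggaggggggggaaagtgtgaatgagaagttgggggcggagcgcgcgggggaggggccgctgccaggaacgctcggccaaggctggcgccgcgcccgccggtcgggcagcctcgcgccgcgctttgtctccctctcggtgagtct

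Socs1: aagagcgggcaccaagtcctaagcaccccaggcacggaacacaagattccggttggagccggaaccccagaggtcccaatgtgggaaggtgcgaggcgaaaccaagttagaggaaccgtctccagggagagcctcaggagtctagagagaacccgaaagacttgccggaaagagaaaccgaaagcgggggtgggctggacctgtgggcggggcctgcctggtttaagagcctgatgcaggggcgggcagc

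Socs3 held a single match, TTCTTAGAA, whose first base lies 154 bases before the start, and the Socs1 window held none. RefSeq windows were at hand for 6 members (also Cish, Socs4, Sh2b3 and Ptpn6), and Socs3 alone among them had a match. The Cish and Sh2b3 windows also lie inside the spans given for these genes below. Of all 32851 promoter windows of the same length, 7.02% had at least 1. A match describes letters only, and windows without one say nothing of sites elsewhere.

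In Jmjd1c 3, 35 of the 12813 tested genes (0.273%) were at least 2-fold above all other libraries on the log2(value + 1) scale, and Socs3 was 1 of these, at 1.81 above the next library. Control 4 had more such genes, 128 (0.999%), and the remaining libraries had 0 to 9. In Jmjd1c 3, no other tested brake was at least 2-fold above all other libraries. Of 18 tested STAT target genes 1 was, the kinase gene Pim1, a common target of STAT3 and STAT5. Pim1 had 64.5, 62.9 and 141 normalized read counts in libraries Jmjd1c 1 to 3, against 47.2, 45.9, 53.6 and 63.8 in controls 1 to 4, and was chosen after its values were seen. Its log2 difference of 0.66 ± 0.26 did not pass (limma, adjusted p = 0.201) and was 0.28 without Jmjd1c 3. None of the 16 tested immediate early genes, 11 JAK and STAT genes or 25 receptors reached that 2-fold distance. B and plasma cell markers were also high in Jmjd1c 3 relative to its group, the 10 genes summing to 29490 in it and to 11727 and 9634 in Jmjd1c 1 and 2, against 18579 to 28573 in control libraries, and their part in the Socs3 and Socs1 values was not tested.

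**Figure D3:**
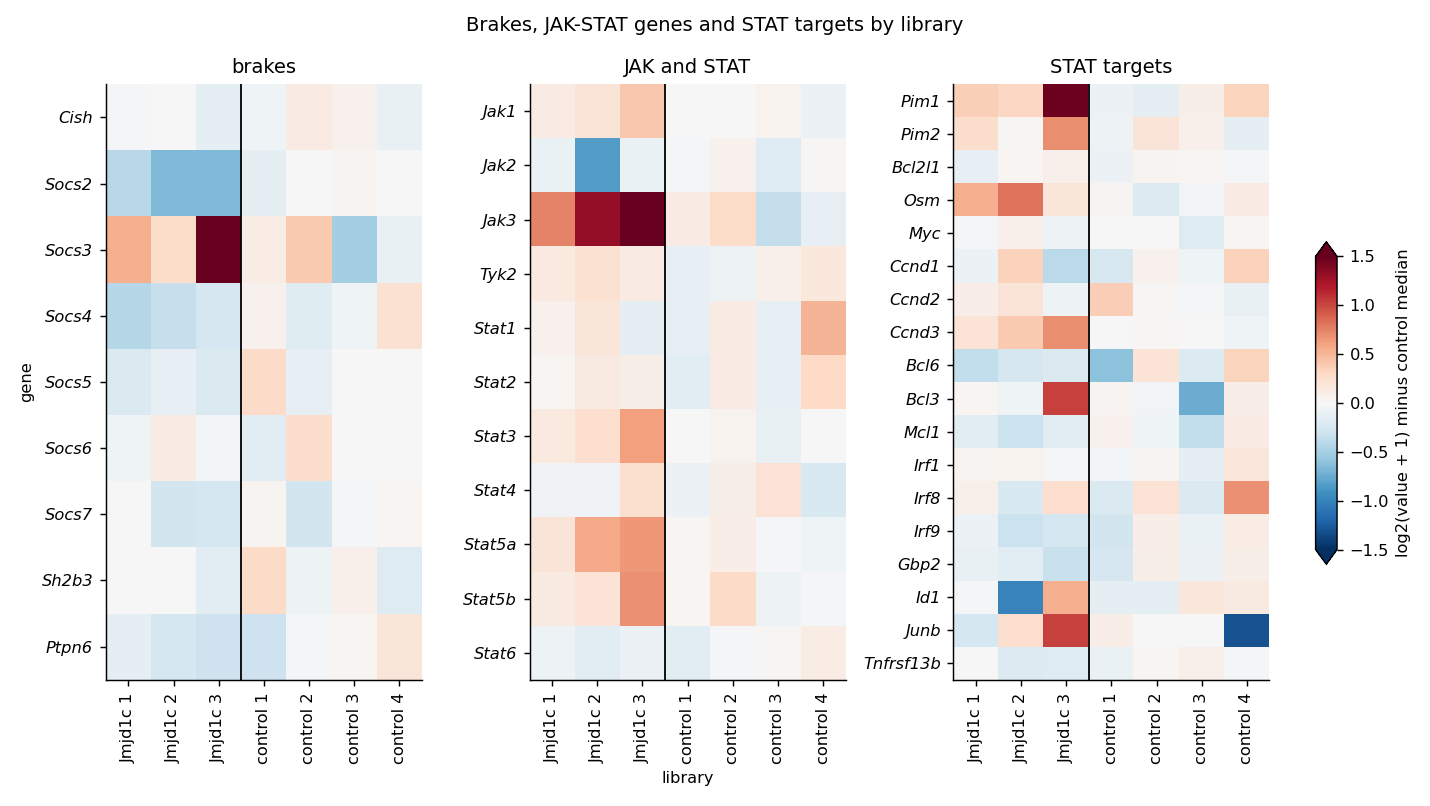
Log2(normalized read count + 1) minus the median of the 4 controls for the 9 tested brakes, 11 JAK and STAT genes and 18 tested STAT target genes, with the 3 Jmjd1c libraries left of the black line and the 4 control libraries right of it. Socs3, Pim1 and Jak3 reach the deepest red in Jmjd1c 3, Jak3 is red in all 3 Jmjd1c libraries and Socs2 is blue in all 3; colours stop at 1.5 either way.

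Cish (chromosome 9, 107296026 to 107302784, plus strand), the classical STAT5 target of the family, was level across the study. It had 131, 134 and 121 normalized read counts in libraries Jmjd1c 1 to 3, against 128, 146, 140 and 123 in controls 1 to 4, and the groups overlapped almost fully. Its log2 difference was -0.06 ± 0.11 (limma, adjusted p = 0.805). The 95% interval of -0.31 to 0.19 bounds the ratio of Jmjd1c to control between 0.808 and 1.14. After correction for GC content and length the log2 difference was -0.16 (limma, adjusted p = 0.515). Of the Cish exon bases 7.46% overlap the antisense gene Gm17041, at 49.5 to 59.4 normalized read counts, and since the strand setting of the counting is not given in the sources used here, reads of both cannot be told apart there. Over the 7 libraries the pathway genes most like Cish were Ier3 (Pearson r = 0.77, Spearman rho = 0.57), Flt3 (r = 0.67, rho = 0.71) and Tnfrsf13b (r = 0.56, rho = 0.57), looser fits than those of Socs2.

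Socs6 and Socs7, family members that bind receptor kinases and insulin pathway adaptors, were also level. Socs6 had 218, 247 and 221 normalized read counts in libraries Jmjd1c 1 to 3, against 202, 273, 226 and 229 in controls 1 to 4, all Jmjd1c libraries lying inside the control range. Its log2 difference was -0.02 ± 0.11 (95% interval -0.26 to 0.23; limma, adjusted p = 0.947), with a sign that turned without Jmjd1c 1, Jmjd1c 3 or control 2 and after correction for GC content and length. Socs7 (chromosome 11, 97362551 to 97398542, plus strand) had 151, 124 and 124 in Jmjd1c 1 to 3, against 154, 123, 147 and 152 in controls 1 to 4, again inside the control range. Its log2 difference was -0.12 ± 0.13 (95% interval -0.39 to 0.16; limma, adjusted p = 0.643). After correction for GC content and length the Socs7 difference was -0.24 (limma, adjusted p = 0.375).

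Sh2b3 (chromosome 5, 121815488 to 121837646, minus strand), which encodes LNK, had 141, 143 and 128 normalized read counts in libraries Jmjd1c 1 to 3, against 174, 135, 150 and 124 in controls 1 to 4. The Jmjd1c libraries lay inside the control range. The log2 difference was -0.08 ± 0.13 (95% interval -0.36 to 0.21; limma, adjusted p = 0.788), and its sign turned without control 1. After correction for GC content and length the difference was -0.27 (limma, adjusted p = 0.339).

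Ptpn6 (chromosome 6, 124720707 to 124738714, minus strand), measured with 1779 to 3363 reads a library, had 2360, 2152 and 2089 normalized read counts in libraries Jmjd1c 1 to 3, against 2090, 2542, 2633 and 2941 in controls 1 to 4. Jmjd1c 1 and 2 lay inside the control range and Jmjd1c 3 level with control 1, its lowest. The log2 difference of -0.20 ± 0.10 (95% interval -0.42 to 0.01) did not pass (limma, adjusted p = 0.285). After correction for GC content and length it was -0.28 (limma, adjusted p = 0.174). The highest value was that of control 4, the library with the high macrophage markers. Without control 4 the log2 difference was -0.13, a value that differs from the one with all libraries by over 1.5 times. Without control 1, the lowest control, it was -0.30 (limma, adjusted p = 0.0803). Of the Ptpn6 exon bases 6.96% overlap the antisense gene Gm20531, which itself had 360 to 592 normalized read counts.

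**Figure D4:**
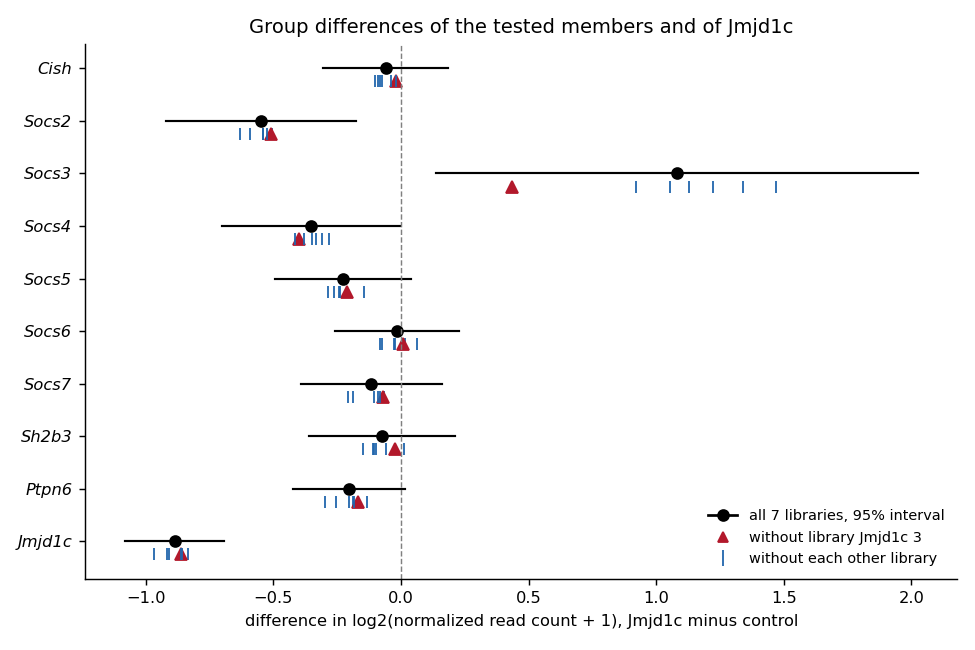
Difference in log2(normalized read count + 1), Jmjd1c minus control, for the 9 tested brakes and Jmjd1c, with the 95% interval from limma (black) and the difference after leaving out Jmjd1c 3 (red triangle) or each other library (blue ticks). Socs3 lies at 1.08 with all libraries and at 0.44 without Jmjd1c 3, Socs2 stays between -0.63 and -0.51, and the remaining brakes lie between -0.42 and 0.062.

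The partners of the SOCS box, the cullin ring ligase genes Cul5, Rnf7, Elob, Eloc and Arih2, were all tested and 0 of 5 were called, with a median log2 difference of -0.08. The smallest p-values were those of Eloc, the elongin C that bridges the SOCS box to the ligase, at 609 ± 8.36 in Jmjd1c and 650 ± 20.5 in control libraries, and of the RING protein gene Rnf7, at 514 ± 58.0 in Jmjd1c and 550 ± 10.3 in control libraries. Their log2 differences were -0.10 each (limma, adjusted p = 0.428 and 0.509), and both turned sign after correction for GC content and length.

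A list of other brakes and related regulators held 25 tested genes, among them Cbl, the Pias genes, Ptpn1, Ptpn2, Ptpn11, Sh2b1, Dok1 and Inpp5d. Of these 0 were called, and the median log2 difference was 0.02. DESeq2 and limma without Jmjd1c 1 each called 1 higher and 1 lower, and limma with the filter of 50 called 1 lower, Dusp6 (adjusted p = 0.0483). Dusp6, the phosphatase of ERK, had 755 ± 45.0 normalized read counts in Jmjd1c and 930 ± 54.4 in control libraries, a log2 difference of -0.30 ± 0.07 (limma, adjusted p = 0.0570, and 0.0167 to 0.223 over all alternatives) with groups that did not overlap. Csk, the kinase that holds SRC family kinases off, had 520 ± 30.3 in Jmjd1c and 426 ± 19.3 in control libraries (0.29 ± 0.07; limma, adjusted p = 0.0699), likewise without overlap. After correction for GC content and length its log2 difference was only 0.056 (limma, adjusted p = 0.726). Csk was not the gene called higher in DESeq2 (adjusted p = 0.0736) or in limma without Jmjd1c 1 (adjusted p = 0.0571).

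Among the signalling genes that the brakes act on, Jak3, a kinase that pairs with the common gamma chain, rose, and Il7r, the interleukin-7 receptor, fell, as 1 of 11 JAK and STAT genes and 1 of 25 receptor genes. Jak3 had 274, 410 and 532 normalized read counts in libraries Jmjd1c 1 to 3, against 178, 198, 127 and 150 in controls 1 to 4 (log2 difference 1.28 ± 0.20; limma, adjusted p = 0.0317). The call was lost without Jmjd1c 2, Jmjd1c 3, control 2 or control 3, with adjusted p from 0.0556 to 0.174 in limma, at 0.147 without the intensity trend and at 0.104 with the replicate number as a block. Il7r had 47.2, 34.0 and 43.4 in Jmjd1c 1 to 3, against 80.0, 77.2, 87.4 and 76.9 in controls 1 to 4 (-0.95 ± 0.16; limma, adjusted p = 0.0317), and its call was lost without any one library other than Jmjd1c 1 and control 4, with adjusted p from 0.0534 to 0.174, at 0.129 without the trend and at 0.104 with the block. The other 10 JAK and STAT genes did not pass, Stat5a being closest with 526 ± 84.2 in Jmjd1c and 379 ± 19.5 in control libraries (0.46 ± 0.11; limma, adjusted p = 0.0514). The number called higher among the 11 ran from 0 to 4 over the alternatives, with 4 in DESeq2 and in limma without Jmjd1c 1. The median log2 difference was 0.16 over the JAK and STAT genes and -0.01 over the receptors.

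Of 18 tested STAT targets outside the members 0 were called, with a median log2 difference of 0.01. Ccnd3, a G1 cyclin, had 555 ± 96.4 normalized read counts in Jmjd1c and 405 ± 10.2 in control libraries (0.44 ± 0.10; limma, adjusted p = 0.0538, and 0.00749 to 0.217 over all alternatives), with a log2 difference of 0.27 after correction for GC content and length. Osm, the cytokine oncostatin M, had 63.4 ± 14.0 in Jmjd1c and 42.8 ± 4.21 in control libraries (0.54 ± 0.19; limma, adjusted p = 0.160). Of 16 immediate early genes, which respond to cytokines and to handling of cells alike, 0 were called, the median being -0.00. Dusp1 had 86.6 ± 40.2 in Jmjd1c and 32.2 ± 12.1 in control libraries (1.36 ± 0.33; limma, adjusted p = 0.0592, and 0.00182 to 0.27 over all alternatives), with groups that overlapped, and Ier2 had 160 ± 34.1 in Jmjd1c and 104 ± 21.5 in control libraries (0.62 ± 0.19; limma, adjusted p = 0.109, and 0.0407 to 0.363 over all alternatives).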

How the data were processed

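RNA of sorted LSK cells was extracted with Trizol, amplified with a SMARTer ultra-low-input kit and sequenced from both ends on Illumina libraries, per the labels' protocols. Trim Galore 0.2.8, STAR, HTSeq 0.6.1p1 and DESeq 1.18.0 with build mm10 were used, per the submitters' processing notes, and neither annotation release nor strand setting is given in the sources used here. The authors deposited a signal per gene, a read count divided by a size factor. Dividing by the smallest step of each column returned whole reads for 100% of values, within 0.01 of a read.

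Symbols came from a table of IDs (37607 of 39179 matched), positions and exon lengths from GENCODE M21. The test was limma-trend (limma 3.58.1, R 4.3.3) on log2(value + 1), a scale that understates the change of low genes, for the 12813 genes that reached 10 in 3 or more libraries, 3 Jmjd1c against 4 control libraries without covariates, with Benjamini-Hochberg adjustment over all tested genes and a threshold of 0.05. Errors beside means are SDs and beside log2 differences standard errors. Single members were also tested by 2-sided exact permutation. Alternatives were other pseudocounts (0.5 and 10), filters and scalings, array weights, no trend, correction for GC content and length, edgeR 4.0.16 and DESeq2 1.42.0 on recovered reads, the replicate number as a block, and leaving out each library. The scripts were tested on simulated data.

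Members and lists were chosen with earlier results of these data known. Named besides the members are the called genes of each pathway list, or its 2 smallest p-values, and the 3 pathway genes most like Cish and Socs2; others are said to be chosen after their values were seen or given as values. Of the list symbols, 3 were not matched to a row, 2 of them older names of Elob and Eloc.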

Additional observations from a re-analysis of the deposited data

Results flagged for a closer look

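A single control library lay far from the other 3 in 2 of 28 sets of control values examined, where chance gives about 1 in 20. For the summed macrophage markers it was control 4, at 13006 normalized read counts against 3444, 4888 and 4315 in controls 1 to 3, a gap of 0.849 of the range. For Rnf7, the RING protein of the SOCS box ligase, it was control 1, at 566 against 544, 544 and 547 in controls 2 to 4, a gap of 0.896 of a narrow range. The check was run on the control libraries only, so Socs3 and Socs1 in Jmjd1c 3 did not enter it.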

How the results depend on the processing

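Over 20 alternatives, 188 values of the members were recomputed. Of these, 182 kept their direction and, in tested members, their side of the threshold, and 5 turned sign. The remaining 1, Socs3 in DESeq2 (1.38, adjusted p = 0.0351), passed. DESeq2 thus called 1 member higher, and all other alternatives called 0 either way. Socs1 values, which have no adjusted p, were counted as kept when they moved by less than the SD within groups. They ran from 0.54 with pseudocount 10 to 1.80 without Jmjd1c 2, against 1.42 in the main setting. The values that turned sign were Socs6, at 0.060 once values were corrected for GC content and length and from -0.081 to 0.062 without each library, and Sh2b3, from -0.15 to 0.013 without each library. Among the other pathway genes, DESeq2 and limma without Jmjd1c 1 each called 4 of the JAK and STAT genes, 1 STAT target and 2 immediate early genes higher. Each also called 1 gene of the list of other brakes and related regulators in either direction. Pseudocount 10, no filter, the filter of 50 and array weights each called 2 JAK and STAT genes. The filter of 50 also called Dusp6 lower and Ccnd3 higher (limma, adjusted p = 0.0483 each). No filter called Ccnd3 and Dusp1 higher (limma, adjusted p = 0.0468 and 0.0478). With the correction for GC and length Eloc had 0.10, Rnf7 0.044 and Csk 0.056. The same correction moved Sh2b3 to -0.27, Socs7 to -0.24, Cish to -0.16 and Ptpn6 to -0.28, further below 0. It brought Socs3 to 0.89, Socs2 to -0.52 and Socs4 to -0.25, nearer 0. Socs3 ran from 0.44 to 1.47 without each library. The log2 difference of Jmjd1c was -0.89 with an adjusted p of 0.117 in limma without the trend, where 0 genes were called, and it was called in all other alternatives, from -0.97 to -0.83 without each library. With the replicate block 0 members were called and 9 genes rose and 7 fell among all tested, against 160 and 42 for the same 6 libraries without it; same-numbered libraries deviated with correlations of -0.05, -0.07 and -0.03, none of them the highest for both its libraries, so the numbers were not taken to pair them. The block also ended the calls of Jak3 and Il7r, each with an adjusted p of 0.104 in limma. Genes called among all tested, 194 higher and 37 lower, were 473 and 117 in DESeq2, 55 and 16 with the GC and length correction, and from 0 to 514 higher and 3 to 117 lower without each library. At 4303712 to 6436519 reads a library, Socs1 (0 to 17 reads) could not be tested, and differences of the size seen in Socs2 and Socs4 rest on 29 to 90 reads a library.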
